A study of Rattus norvegicus with 40 samples.

Results

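Transcripts of 5 genes of antigen presentation were followed in microglia of adult rat offspring. They are Cd74, the invariant chain, RT1-Da and RT1-Ba, which encode class II alpha chains, RT1-Db1, which encodes a class II beta chain, and B2m, the light chain of class I molecules. The genes were chosen by their Ensembl IDs (ENSRNOG00000018735, ENSRNOG00000032844, ENSRNOG00000032708, ENSRNOG00000000451 and ENSRNOG00000017123 in the order Cd74, RT1-Da, RT1-Db1, RT1-Ba, B2m), and 5 of 5 were among the 32883 IDs of the count table. They passed the filter on low counts in all 16 comparisons made.

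The animals were Sprague Dawley rats, an outbred stock, whose dams had breathed intermittent hypoxia (cycles between 10.5% and 21% oxygen) or intermittent normoxia (21% oxygen throughout) from gestational day 10 to day 21, for 8 hours a day at 15 cycles an hour.  At 8 weeks, microglia were isolated from the C3 to C6 cervical spinal cord and from the medulla by magnetic beads that carry anti-CD11b. The 8 groups were female hypoxia, female normoxia, male hypoxia and male normoxia, each in cord and in medulla, with 5 libraries a group from separate animals. Each exposure had 5 litters, which gave a female and a male each. CD11b is also carried by other myeloid cells, and the purity of the isolated cells was not checked here, because the count table holds no gene symbols from which marker genes could be looked up.

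Class II molecules are pairs of an alpha and a beta chain on antigen-presenting cells that show peptides from the endosome to CD4+ T cells. The invariant chain holds the peptide groove closed during transport, and the rat has a pair of classical class II molecules, RT1.D (Da with Db1) and RT1.B (Ba with its own beta chain). B2m pairs with every class I heavy chain and is needed for class I molecules to reach the cell surface. Microglia in the healthy adult carry little class II and raise it in many states of activation. The RT1 complex differs between rat strains in its alleles.

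Class II genes, Cd74 and B2m are known to be controlled through an X box, bound by RFX proteins, and a Y box, bound by NF-Y, in the promoter, and CIITA joins them at class II genes. The promoters are shown because several of these genes varied together between animals. The stretches run from base -150 to base -31 before the start of the gene, 5′ to 3′ on the gene's strand, from RefSeq on build GRCr8, which is not the build of the counts (rn6). Capitals mark GCAAC (the core of the X box) and GATTGG (the Y box) on either strand.
Cd74 (chr18:56527056-56527175, plus strand): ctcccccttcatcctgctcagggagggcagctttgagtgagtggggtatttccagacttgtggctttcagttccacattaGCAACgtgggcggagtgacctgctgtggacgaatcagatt
RT1-Da (chr20:4515265-4515384, plus strand): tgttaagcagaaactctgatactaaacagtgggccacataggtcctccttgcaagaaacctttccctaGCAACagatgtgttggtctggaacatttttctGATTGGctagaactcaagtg
RT1-Db1 (chr20:4560193-4560312, minus strand): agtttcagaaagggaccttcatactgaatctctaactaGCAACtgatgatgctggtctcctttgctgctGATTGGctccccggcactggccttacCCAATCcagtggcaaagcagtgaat
RT1-Ba (chr20:4576907-4577026, plus strand): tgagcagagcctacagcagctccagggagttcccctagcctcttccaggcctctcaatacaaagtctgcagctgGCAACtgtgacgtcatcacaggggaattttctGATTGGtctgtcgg
B2m (chr3:129549180-129549299, plus strand): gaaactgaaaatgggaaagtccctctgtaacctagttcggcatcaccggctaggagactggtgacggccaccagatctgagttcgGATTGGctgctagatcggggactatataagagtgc

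The 3 class II promoters shared both motifs at nearly the same spacing. GCAAC and GATTGG lay 27 bases apart in RT1-Da, 26 in RT1-Db1 and 27 in RT1-Ba. In RT1-Db1 a second GATTGG stood on the other strand. The Cd74 stretch held GCAAC at bases -70 to -66 and the B2m stretch GATTGG at bases -65 to -60. Neither stretch as cut here held the other motif. The Cd74 stretch ends in gatt, the first letters of GATTGG, so a motif that runs past base -31 would not be seen in it. Of 33469 promoters, 29.5% held GCAAC and 13.3% GATTGG on either strand. These promoters have 250 bases before and 50 bases after the start, more than the stretches shown. GCAAC followed by GATTGG after 20 to 35 bases was found in 0.194% of them. The motifs do not overlap each other in these stretches, and a match describes letters only.

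Libraries held 6061346 to 24039411 counted reads. Levels are given as CPM, the gene's count divided by the library total and scaled to the same total for all libraries. Genes differ in length, so levels are set side by side only within a gene. The counts behind the levels were 2743 to 89356 for Cd74, 610 to 18729 for RT1-Da, 7 to 6583 for RT1-Db1, 1 to 3648 for RT1-Ba and 3824 to 107626 for B2m. Female hypoxia medulla replicate 3 had the fewest reads, 6061346, with counts in 13379 IDs, and held the lowest level of each of the 5 genes among the 40 libraries. Fitted differences that use the female hypoxia medulla are therefore given with and without it. In these bulk samples fewer cells of a type and less RNA per cell cannot be told apart.

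**Figure D1:**
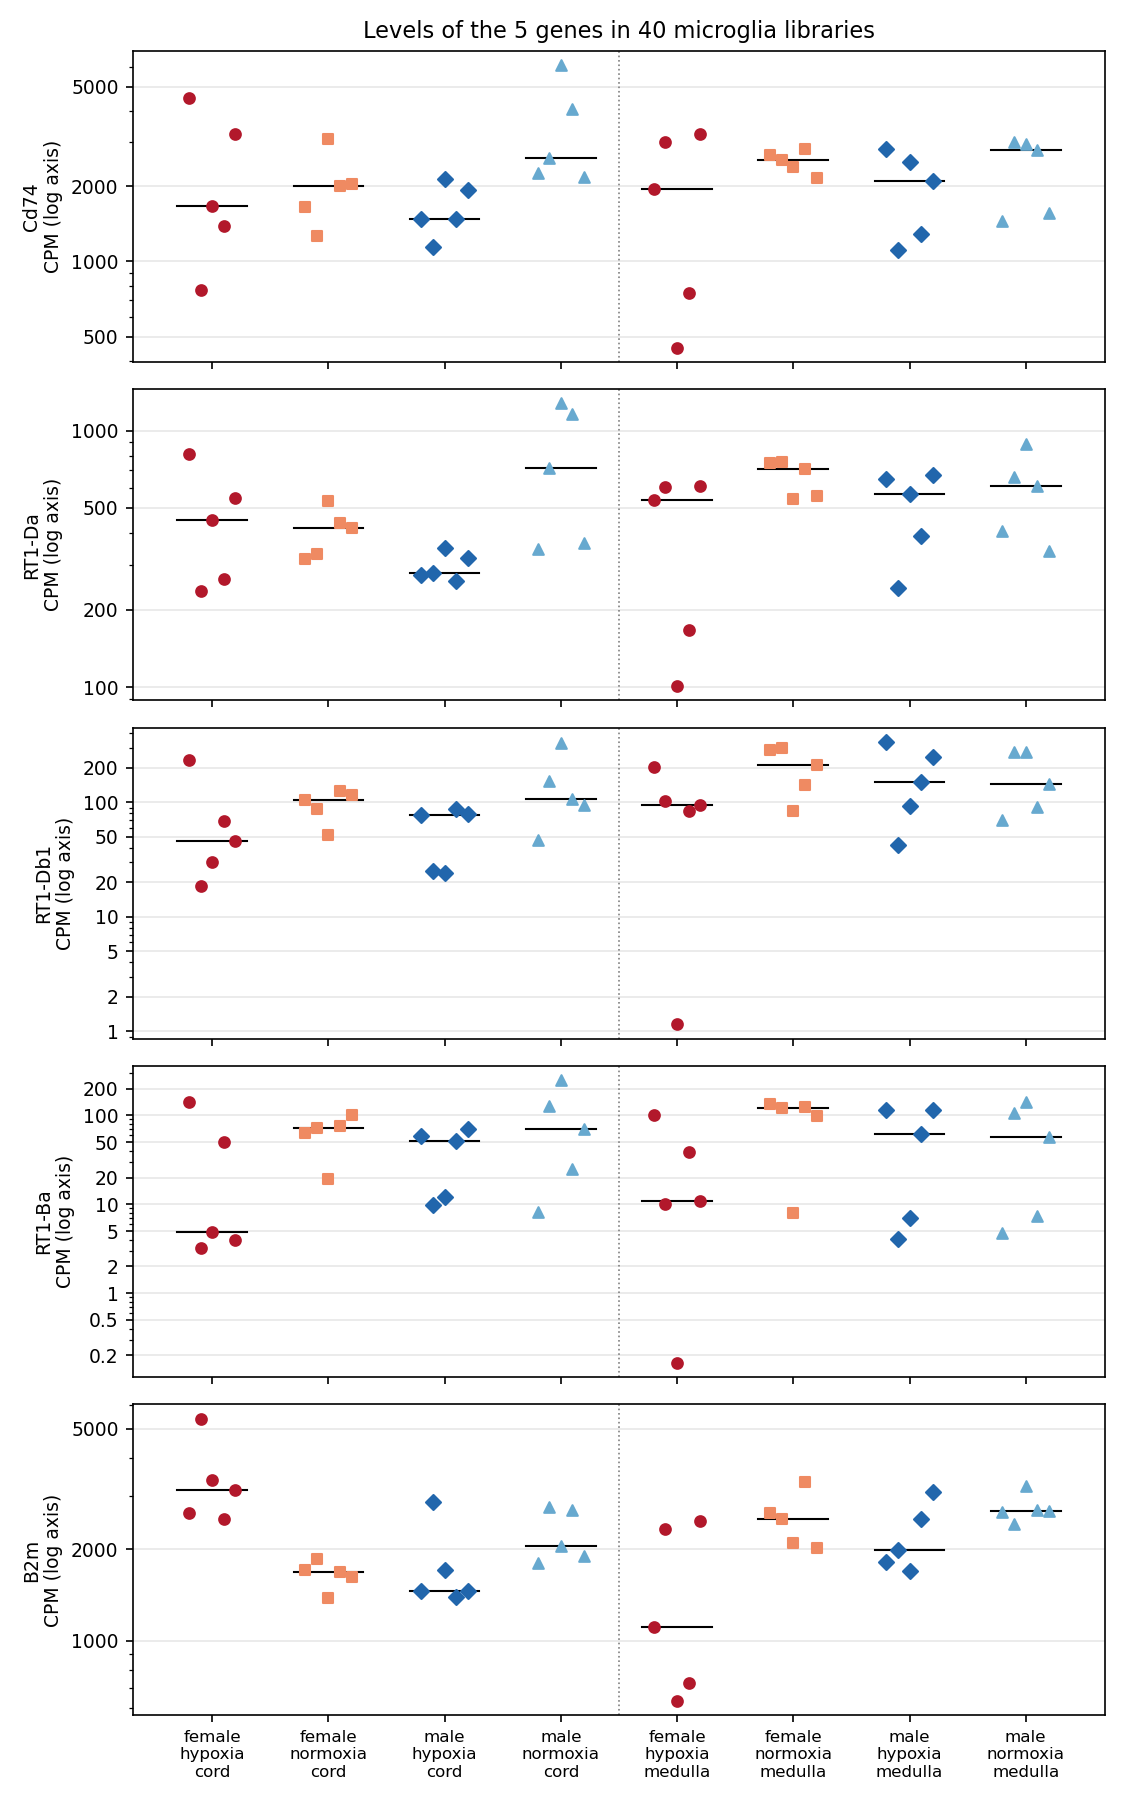
CPM on a log axis of the 5 genes in 40 libraries, 5 per group, with points for libraries in the order of their replicate numbers and a line at the group median. RT1-Ba lies below 25 CPM in some animals of every group, and B2m in the female hypoxia cord lies above the female normoxia cord throughout.

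RT1-Ba, the alpha chain of RT1.B, had the widest fold span of the 5 genes in each region, with 3.26 to 249 CPM in the cord and 0.165 to 142 CPM in the medulla. In the cord it was at 140, 3.26, 4.94, 50.3 and 3.99 CPM in female hypoxia replicates 1 to 5, against 63.9, 71.5, 19.3, 75.3 and 101 CPM in female normoxia replicates 1 to 5. Males had 58.3, 9.82, 12.2, 51.9 and 70.3 CPM after hypoxia, against 8.28, 129, 249, 24.7 and 69.7 CPM after normoxia. Low and high animals stood in each of these 4 groups, and their ranges overlapped.

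The same animals were low in the medulla. RT1-Ba was there at 102, 10.2, 0.165, 38.4 and 11.0 CPM in female hypoxia replicates 1 to 5, against 135, 122, 8.09, 124 and 99.5 CPM in female normoxia replicates. Males had 115, 4.10, 7.07, 61.9 and 114 CPM after hypoxia, against 4.71, 106, 142, 7.33 and 57.3 CPM after normoxia. The 8 animals with the lowest RT1-Ba in the medulla were the 8 with the lowest RT1-Ba in the cord. They lay at 0.165 to 11.0 CPM in the medulla and at 3.26 to 24.7 CPM in the cord. The other 12 animals lay at 38.4 to 142 CPM and 50.3 to 249 CPM. In the cord this gap was 2.03-fold, with 1.78-fold the next largest between neighbours in the order. In the medulla it was 3.5-fold, and the largest gap, 24.9-fold, set off the lowest library alone. Of the 8 animals, 3 were female hypoxia, 1 female normoxia, 2 male hypoxia and 2 male normoxia. The lowest value rests on a single count (0.165 CPM, exact 95% Poisson interval 0.00418 to 0.919, counting error only).

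**Figure D2:**
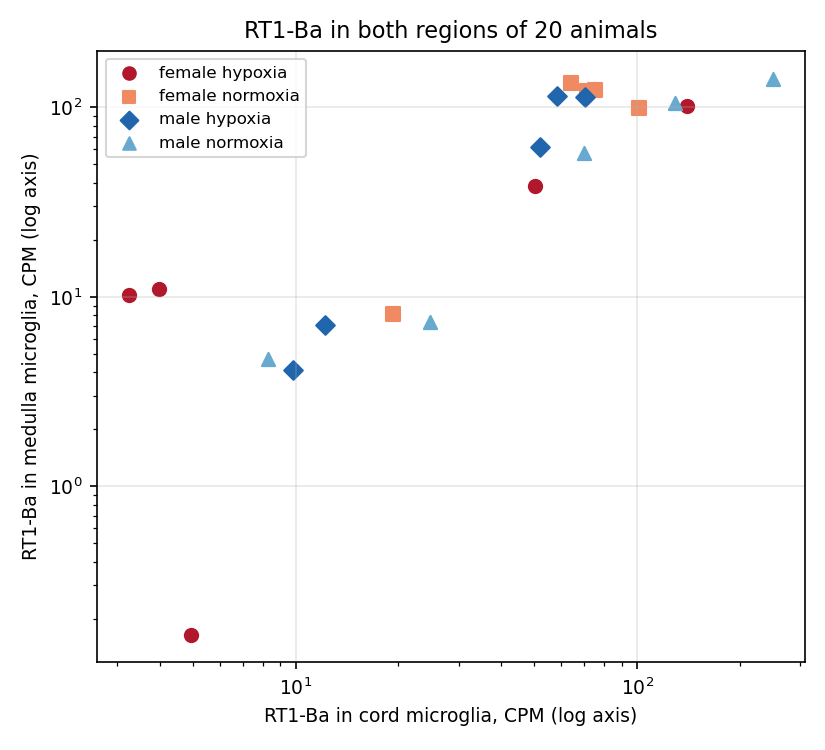
RT1-Ba in cord microglia (CPM, log axis) against medulla microglia of the same animal (CPM, log axis), 20 animals in 4 groups. Points fall into 8 animals below 25 CPM in both regions and 12 above 38 CPM in both.

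Set against RT1-Da, the alpha chain of RT1.D, the split was wider than on the CPM scale. In the cord the ratio of RT1-Ba to RT1-Da counts was 0.00734 to 0.0361 in the 8 animals and 0.172 to 0.241 in the other 12. The medulla ratios were 0.00164 to 0.0181 and 0.159 to 0.23. These ratios carry gene length, so they compare libraries and not the genes. RT1-Ba thus stood low or high relative to RT1-Da with no library between 0.0361 and 0.159.

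RT1-Db1, the beta chain of RT1.D, ranged from 18.5 to 331 CPM in the cord and from 1.15 to 338 CPM in the medulla. The medulla minimum was 7 counts in female hypoxia replicate 3, and the next lowest library had 42.6 CPM. Its ratio to RT1-Da was lowest in the same 8 animals in both regions, at 0.0669 to 0.134 in the cord, where the other 12 had 0.217 to 0.333. In the medulla it was 0.0115 to 0.175 in the 8 animals and 0.201 to 0.524 in the others. The 0.0115 is again female hypoxia replicate 3, and the next lowest ratio was 0.151. Female normoxia medulla replicate 4 was nearest to the 8, with a ratio of 0.201. The ratio of RT1-Da to Cd74 did not follow this order: among its 8 lowest libraries, 4 of the cord and 5 of the medulla belonged to these animals. Female hypoxia replicate 5 had the highest Cd74 of all medulla libraries, 3225 CPM, with RT1-Ba at 11.0 CPM. The animals were picked from these values, so no test was made between them. The counts were made against the rn6 build, and how reads of RT1 alleles that differ from it, or of near-identical RT1 copies, were counted was not tested. RT1-Ba and RT1-Db1 levels are uncertain to that extent.

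Cd74 and RT1-Da varied together between animals. With group means removed, their log2 levels correlated at Pearson's r = 0.87 in the cord (Spearman's rho 0.89, n = 20) and r = 0.96 in the medulla (rho 0.93, n = 20). Within-group permutation tests gave p = 1e-05 for both r, the smallest that 100000 permutations can give, and 8.3e-05 after adjustment over 25 relations. The permutations took no account of females and males that share a litter, so all permutation p-values given here may be too small. For rho the permutation p was 4e-05 in the cord and 0.00013 in the medulla. Without the 2 animals farthest from the median of Cd74, r was 0.84 and 0.92. The ratio of RT1-Da to Cd74 counts stayed within 0.154 to 0.309 in the cord and 0.188 to 0.321 in the medulla.

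In the medulla RT1-Db1 was also related to Cd74 (r = 0.71, rho 0.68, permutation adjusted p = 0.025 and 0.014) and to RT1-Da (r = 0.78, rho 0.8, adjusted p = 0.0039 and 0.00075). Both missed the threshold without the 2 farthest animals, at r = 0.63 (permutation adjusted p = 0.17) and r = 0.55 (0.065). Without female hypoxia animal 3 alone, r was 0.43 with Cd74 (permutation adjusted p = 0.17) and 0.60 with RT1-Da (0.035). In the cord RT1-Db1 was not shown to relate to either, at r = 0.56 with Cd74 (rho 0.43, permutation adjusted p = 0.11 and 0.2) and r = 0.52 with RT1-Da (rho 0.33, adjusted p = 0.13 and 0.28). B2m and Cd74 had r = -0.46 in the cord (rho -0.34, permutation adjusted p = 0.15 and 0.28) and r = 0.71 in the medulla (rho 0.4, adjusted p = 0.12 and 0.28). Between the regions of an animal, r was 0.28 for Cd74, 0.35 for RT1-Da, 0.56 for RT1-Db1 and 0.24 for B2m (permutation adjusted p 0.49, 0.31, 0.13 and 0.53). RT1-Db1 passed without the 2 farthest animals (r = 0.61, permutation adjusted p = 0.0064) and without female hypoxia animal 3 (r = 0.71, 0.0032). For RT1-Ba no pooled coefficient is given, because its levels fell into separate ranges. Its relations, such as that to RT1-Db1, are therefore not ranked against those above.

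**Figure D3:**
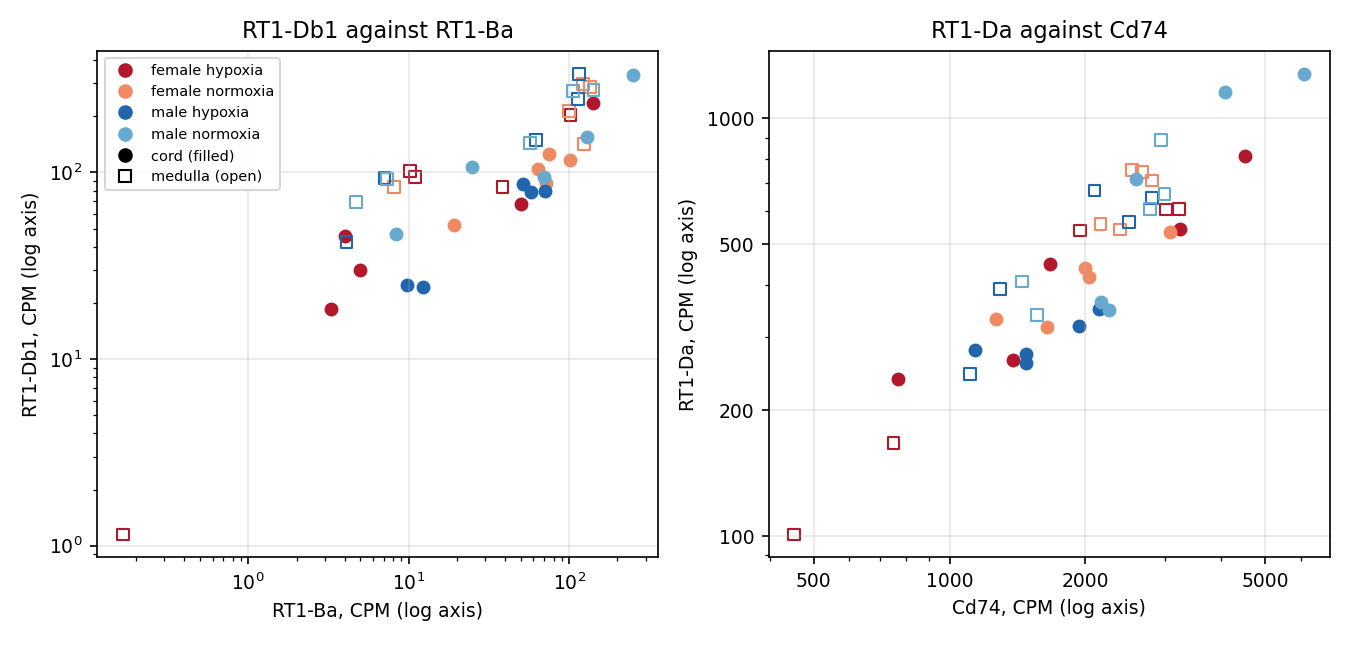
Left, RT1-Db1 against RT1-Ba, and right, RT1-Da against Cd74, in CPM on log axes, for 20 cord libraries (filled circles) and 20 medulla libraries (open squares) of 4 groups. RT1-Da follows Cd74 along a line, while RT1-Ba leaves a gap between low and high animals.

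Over the 40 libraries, Cd74 was most like RT1-Da among 11851 IDs with an average log2 CPM of at least 1 (Spearman's rho 0.86), followed by ENSRNOG00000033215 (0.77) and ENSRNOG00000002659 (0.66). RT1-Da was most like Cd74, then ENSRNOG00000002659 and RT1-Db1 (0.74 each). RT1-Db1 was most like RT1-Ba, whose coefficient is left aside, then RT1-Da (0.74) and ENSRNOG00000061739 (0.72). None of the 3 IDs closest to B2m, at 0.92 to 0.95, was among the other 4 members. The libraries share animals, depth and composition, so these coefficients are descriptions.

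The first comparison asked whether the offspring of hypoxia dams differed from those of normoxia dams. B2m was 2.33-fold higher after hypoxia in the female cord. It was at 2627, 5402, 3376, 2525 and 3137 CPM in female hypoxia cord replicates 1 to 5, against 1716, 1859, 1380, 1686 and 1618 CPM in female normoxia cord replicates 1 to 5. Every hypoxia library lay above every normoxia library. The share of all genes whose group ranges did not overlap was not counted, for this or the later comparisons. The means were 3413 ± 1166 CPM and 1652 ± 176 CPM (SD, n = 5 each), with a log2 fold change of 1.22 (SE 0.23, edgeR quasi-likelihood adjusted p = 0.000547). The call was kept in 17 of 17 alternative fits, with log2 fold changes of 0.94 to 1.32. In this comparison 32.8% of 13593 genes were called, 18.2% higher, so 1 of 5 members called is no more than the background. Depth moved with the exposure here, at 13570283 to 20650051 reads in female hypoxia cord libraries and 8818241 to 13327037 reads in female normoxia cord libraries (5 each), and its part in the result was not tested.

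The class II genes and Cd74 were not called in the female cord. Cd74 was at 4513, 768, 1669, 1385 and 3232 CPM in female hypoxia replicates 1 to 5, against 1644, 1265, 3073, 1999 and 2036 CPM in female normoxia replicates. RT1-Da was at 812, 238, 449, 264 and 544 CPM after hypoxia, against 316, 331, 534, 438 and 417 CPM after normoxia. For both genes the hypoxia libraries reached above and below the normoxia range. The log2 fold changes were 0.33 (SE 0.36) for Cd74 and 0.31 (SE 0.32) for RT1-Da, with adjusted p of 0.507 and 0.488. RT1-Db1 had -0.18 (SE 0.56) and RT1-Ba -0.62 (SE 0.89), with adjusted p of 0.835 and 0.631.

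In the male cord all 5 genes had a lower fitted mean after hypoxia, but none passed the adjusted threshold. RT1-Da was at 273, 279, 349, 260 and 318 CPM in male hypoxia cord replicates 1 to 5, against 347, 715, 1279, 1160 and 364 CPM in male normoxia cord replicates 1 to 5. Its hypoxia values were tightly grouped, and the lowest normoxia library lay within them. The log2 fold change was -1.40 (SE 0.33), with an unadjusted p of 0.000351 and an edgeR adjusted p of 0.744. Cd74 was at 1476, 1141, 2145, 1476 and 1935 CPM after hypoxia, against 2253, 2593, 6103, 4068 and 2170 CPM after normoxia. The Cd74 ranges did not overlap, but the gap lay within counting error. The exact 95% Poisson interval was 2118 to 2172 CPM for the highest hypoxia library and 2143 to 2197 CPM for the lowest normoxia library. The log2 fold change was -1.09 (SE 0.36, unadjusted p = 0.0066, edgeR adjusted p = 0.764). RT1-Db1 had -1.33 (SE 0.57, unadjusted p = 0.0288), RT1-Ba -1.26 (SE 0.90) and B2m -0.35 (SE 0.23).

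Over all genes the male cord comparison called 0% of 13593 with edgeR, while 6.19% had an unadjusted p under 0.05. DESeq2 called 1 gene and limma voom 0 of the whole table, and neither called a member. Unadjusted, 3 of the 5 members were under 0.05.

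The exposure difference in the cord was then tested for a difference between the sexes. RT1-Da, B2m and Cd74 differed, with a more positive response in females. The interaction, the female minus the male log2 fold change, was 1.71 for RT1-Da (SE 0.46, edgeR adjusted p = 0.011), 1.57 for B2m (SE 0.32, adjusted p = 0.00234) and 1.42 for Cd74 (SE 0.51, adjusted p = 0.0471). RT1-Db1 (1.15, SE 0.79) and RT1-Ba (0.65, SE 1.26) were not called. The calls of RT1-Da and B2m were kept in 26 of 26 alternative fits. That of Cd74 was kept in 11 of 26, with adjusted p of 0.0175 to 0.103. It was lost with DESeq2 (0.0532), with all 40 libraries in the fit (0.0966), and without each of 13 single libraries in turn, the largest adjusted p being 0.103 without male normoxia cord replicate 3. The background was 23.2% of 13593 genes called, 13.2% with a more positive response in females, against 3 of 5 members.

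**Figure D4:**
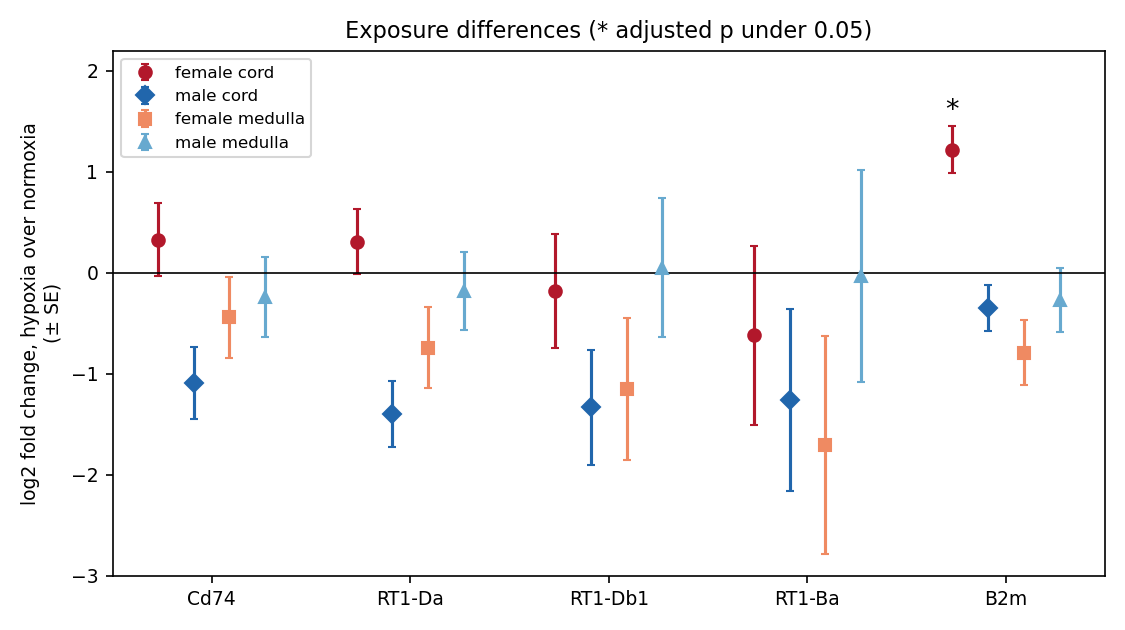
Log2 fold change of hypoxia over normoxia (points) with its standard error (bars) from edgeR for the 5 genes in 4 comparisons of 5 against 5 libraries. An asterisk marks an adjusted p under 0.05, which B2m in the female cord alone reached, and in the male cord all 5 points lie below 0.

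In the medulla no member was called by exposure in either sex. Cd74 was at 1946, 3013, 453, 751 and 3225 CPM in female hypoxia medulla replicates 1 to 5, against 2669, 2535, 2383, 2802 and 2159 CPM in female normoxia medulla replicates. B2m was at 1107, 2340, 631, 726 and 2486 CPM after hypoxia, against 2647, 2528, 2102, 3325 and 2015 CPM after normoxia. Replicates 3 and 4 were low in both genes, and for Cd74 replicates 2 and 5 lay above the normoxia range. The log2 fold changes were -0.44 (SE 0.40) for Cd74 and -0.79 (SE 0.32, unadjusted p = 0.0218, edgeR adjusted p = 0.268) for B2m. Without replicate 3 they were -0.20 and -0.62, with adjusted p of 0.89 and 0.61. RT1-Da, RT1-Db1 and RT1-Ba had -0.74 (SE 0.40), -1.15 (SE 0.70) and -1.71 (SE 1.08), and without replicate 3 -0.50, -0.82 and -1.40. The low RT1-Ba range held 3 of 5 female hypoxia and 1 of 5 female normoxia animals. The part of this uneven split in the RT1-Ba and RT1-Db1 values, here and in the female cord, was not tested.

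In the male medulla the log2 fold changes by exposure lay between -0.27 and 0.05. Their standard errors were 0.32 for B2m, 0.40 for Cd74, 0.39 for RT1-Da, 0.69 for RT1-Db1 and 1.05 for RT1-Ba. No gene of 14151 was called by edgeR in either medulla comparison or in their interaction. The share with an unadjusted p under 0.05 was 15.4% in females, 0.862% in males and 6.21% for the interaction. For females, males and the interaction DESeq2 gave 53, 0 and 2 calls, and limma voom gave 1, 0 and 1. Members with an unadjusted p under 0.05 numbered 1 in females (B2m), 0 in males and 0 for the interaction, and neither DESeq2 nor limma voom called a member. The interaction ran from -1.68 for RT1-Ba to -0.19 for Cd74, and without female hypoxia medulla replicate 3 from -1.35 for RT1-Ba to 0.06 for Cd74, which changed sign.

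Sex was compared within each exposure. After hypoxia, B2m was 2.11-fold higher in the female than in the male cord. The 5 female hypoxia cord values given above average 3413 ± 1166 CPM, and male hypoxia cord replicates 1 to 5 were at 1457, 2863, 1708, 1391 and 1458 CPM (1775 ± 620 CPM, SD, n = 5). Female and male libraries of a number deviated together here. In 5 of 5 such pairs B2m was higher in the female, by 1.80 to 2.15 times. The share of all genes that were uniform over such pairs was not counted. Replicate 2 was the highest library of both sexes, and the group ranges overlapped through it. The log2 fold change was 1.08 (SE 0.23, edgeR adjusted p = 0.00392), kept in 17 of 17 alternatives. Depth differed here too, at 13570283 to 20650051 reads in female and 8145033 to 12016434 reads in male hypoxia cord libraries. Its part in the result was not tested. The background was 19.6% of 13593 genes, 11.4% higher and 8.17% lower in females, against 1 of 5 members, which was higher. Cd74 (0.59, SE 0.36) and RT1-Da (0.74, SE 0.33, unadjusted p = 0.0344, edgeR adjusted p = 0.114) were not called.

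After normoxia the fitted means of all 5 genes were lower in the female cord, and none was called. RT1-Da had a log2 fold change of -0.98 (SE 0.33, unadjusted p = 0.00682, edgeR adjusted p = 0.0709) with 407 ± 88.4 CPM in females and 773 ± 435 CPM in males (SD, n = 5 each). It passed with DESeq2 (adjusted p = 0.0406) and without male normoxia cord replicate 1. Cd74 had -0.83 (SE 0.36, adjusted p = 0.16) and B2m -0.50 (SE 0.23, adjusted p = 0.189). In normoxia cord replicates 1 to 5, B2m was at 1716, 1859, 1380, 1686 and 1618 CPM in females. Males had 1810, 2751, 2055, 2698 and 1909 CPM, so the female library of every number was the lower. With only the 10 libraries compared, B2m was called (adjusted p = 0.0441) and RT1-Da was not (0.081). The background was 6.56% of genes, of which females were higher in 3.18% and lower in 3.38%, and limma voom called no member. Unadjusted, 3 of 5 members were under 0.05, as were 23.5% of 13593 genes. In the medulla the members' log2 fold changes for sex ran from -1.02 to -0.06 after hypoxia and from -0.08 to 0.67 after normoxia, and 0 of 5 members were called in either. Without female hypoxia medulla replicate 3 the range after hypoxia was -0.69 for RT1-Ba to 0.18 for Cd74, so the sign of Cd74 depended on that library. The background was 0.0777% of 14151 genes after hypoxia (0.0283% higher and 0.0495% lower in females) and 0.0707% after normoxia (0.0212% higher and 0.0495% lower). No member had an unadjusted p under 0.05 there, and DESeq2 and limma voom called none. Of all genes, 14.3% after hypoxia and 4.15% after normoxia had an unadjusted p under 0.05.

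Region was compared between the cord and the medulla of the same animals. The reported fit did not pair the regions of an animal, so its adjusted p is unpaired unless an animal block is named. B2m was higher in the cord in 5 of 5 female hypoxia animals and lower in the cord in 5 of 5 female normoxia animals. In female hypoxia the fitted cord level was 2.57-fold the medulla level (log2 fold change 1.36, SE 0.29, edgeR adjusted p = 0.00124), with the cord and medulla values given above not overlapping. Without medulla replicate 3 it was 1.20 (adjusted p = 0.00437), and with each animal as a block 1.52 (adjusted p = 0.000262). The call was lost when only the 10 libraries of the groups compared set the spread (1.35, adjusted p = 0.129). In female normoxia the log2 fold change was -0.66 (SE 0.29, adjusted p = 0.151), again without overlap, and limma voom called it (-0.58, adjusted p = 0.0477), as did edgeR with only the 10 libraries compared (-0.65, adjusted p = 0.0213). The share of genes called was 26.2% of 14832 in female hypoxia, 12.7% higher in the cord, against 1 of 5 members. In female normoxia it was 5.86%, with 2.13% higher and 3.73% lower in the cord, against 0 of 5 members. Of these members 1 (B2m) had an unadjusted p under 0.05, as had 24.2% of all genes.

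**Figure D5:**
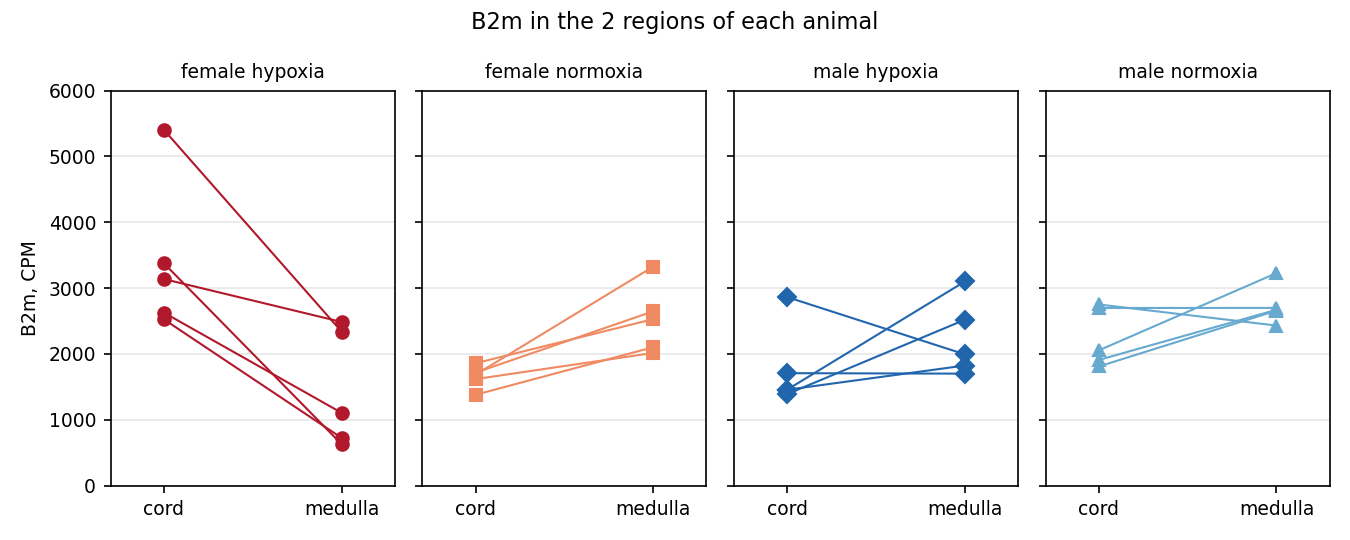
B2m in CPM in the cord and the medulla of each of 20 animals, with a line per animal and a panel per group. All 5 lines of the female hypoxia animals run down to the medulla, and all 5 of the female normoxia animals run up.

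The region difference of B2m in females depended on exposure. The interaction, the hypoxia minus the normoxia difference between cord and medulla, was 2.02 on the log2 scale (SE 0.41, edgeR adjusted p = 0.00172). It was kept in 26 of 26 alternatives, and was 1.84 (adjusted p = 0.00204) without female hypoxia medulla replicate 3. In males it was -0.07 (SE 0.40). Cd74, RT1-Db1 and RT1-Ba had 0.78, 0.98 and 1.11 in females, and without that replicate 0.52, 0.64 and 0.76. The background was 20.7% of 14832 genes in females, 11.2% above 0 and 9.53% below 0, against 1 of 5 members. RT1-Da had 1.06 in females (SE 0.53, adjusted p = 0.153) and 0.81 (adjusted p = 0.262) without that replicate, and with each animal as a block it was called (1.25, adjusted p = 0.0445). No gene was called in males with edgeR, DESeq2 or limma voom, where 1.88% had an unadjusted p under 0.05, among them RT1-Da (-1.20, SE 0.53, unadjusted p = 0.0309).

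The other genes showed no called region difference. RT1-Da was lower in the cord in 5 of 5 female normoxia animals, at 316 to 534 CPM in the cord and 542 to 754 CPM in the medulla, without overlap (log2 fold change -0.75, SE 0.38, edgeR adjusted p = 0.219). With only the 10 libraries compared the adjusted p was 0.0154. RT1-Db1 was lower in the cord in 16 of 20 animals, including 5 of 5 in male hypoxia (-1.56, SE 0.67, adjusted p = 0.154) and 5 of 5 in female normoxia (-1.12, SE 0.66, adjusted p = 0.3). With each animal as a block, the edgeR adjusted p was 0.113 for RT1-Da in female normoxia. For RT1-Db1 it was 0.0528 in male hypoxia (log2 fold change -1.44) and 0.143 in female normoxia (-1.04), so none was called. With only the 10 female normoxia libraries RT1-Db1 was called (adjusted p = 0.0418). Cd74 was higher in the cord in 11 of 20 animals and RT1-Ba in 12 of 20. In female hypoxia the fitted differences were 0.40 for Cd74, 0.31 for RT1-Da, -0.14 for RT1-Db1 and 0.51 for RT1-Ba, and without medulla replicate 3 0.17, 0.09, -0.46 and 0.18. In males, cord minus medulla called 7.75% of 14832 genes after hypoxia (2.68% higher and 5.06% lower in the cord) and 6.55% after normoxia (2.37% higher and 4.19% lower), and 0 of 5 members in each. Of these members 1 had an unadjusted p under 0.05 after hypoxia (RT1-Db1, 0.0255) and 0 after normoxia, and DESeq2 and limma voom called none. Among all genes 21.7% after hypoxia and 21.2% after normoxia had an unadjusted p under 0.05.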

How the data were processed

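The authors deposited raw read counts per Ensembl gene ID, as whole numbers, for 40 libraries, and column names gave the library. The submitters' processing notes name TopHat2 2.1, HTSeq, edgeR and build rn6, without role or order. For the annotation release, strand setting and multi-mapping rule the entry is: not given in the sources used here. Reads of RT1 genes with near-identical copies may have been lost or shared. The table pairs no ID with a symbol, and the reference gene table matched 0 IDs, so the symbols of the 5 members are those of the list, and the wider pathway and cell type marker lists were not analysed here. The members and lists were chosen with earlier results of these data known. The named genes were the 5 members in every comparison and, per member, the 3 IDs with the most similar levels, except that no pooled coefficient is given for RT1-Ba, whose levels fell into separate ranges.

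Differences were tested with edgeR 4.0.16 (quasi-likelihood, TMM, filterByExpr with a minimum count of 10, R 4.3.3), with Benjamini-Hochberg adjustment over all genes tested and a threshold of 0.05. The standard error was taken as the log2 fold change over the root of F. Exposure and sex were fitted within the 20 libraries of a region, region within all 40 without pairing by animal. Alternatives were RLE factors, no filter, DESeq2 1.42.0, limma 3.58.1 voom with quality weights, other sets of libraries, a fit with a replicate block, and each library left out in turn. The edgeR test was run on simulated data with independent libraries. That check does not cover shared litters or animals. Correlations used log2(CPM + 0.5) minus the group mean, with permutation within groups, and 6 of the 10 pairs of genes per region are without RT1-Ba.

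By the series design, libraries with 1 number in cord and medulla share an animal. Over 13544 genes, deviations from group means correlated at 0.06 to 0.5 in 20 such pairs. Female and male cord libraries of a number correlated at 0.14 to 0.33 after hypoxia and 0.08 to 0.42 after normoxia. In the medulla the range was -0.41 to 0.23 after hypoxia and -0.02 to 0.75 after normoxia. Those of the cord were set side by side as pairs for B2m above. Libraries of a group were compared for repeats, and none matched (chi-square per degree of freedom at least 10.9).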

Additional observations from a re-analysis of the deposited data

Results flagged for a closer look

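In the cord, the exposure difference differed between females and males for Cd74 (1.42 on the log2 scale), RT1-Da (1.71) and B2m (1.57), by the interaction test of edgeR given above. That test called 23.2% of 13593 genes. The call of Cd74 was kept in only 11 of 26 alternative fits. Neither Cd74 nor RT1-Da, which varied together, was called by exposure in the cord of either sex. For B2m in females the exposure difference also differed between cord and medulla (2.02), where 20.7% of 14832 genes were called. The paired values of B2m went opposite ways. They were higher in the cord in 5 of 5 female hypoxia animals, with a median log2 difference of 1.25. In 5 of 5 female normoxia animals they were lower in the cord, with a median of -0.61. The share of all genes with such paired counts, here or above, was not counted.

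A library far from the others of its group was found in 3 of 40 sets of 5 values, by Dixon's ratio on CPM with a critical value of 0.71. Chance gives about 1 in 20 for independent sets of normally distributed values. These sets share libraries, so that rate is only a rough guide. RT1-Db1 was at 235 CPM in female hypoxia cord replicate 1, where the other 4 libraries had 18.5 to 68.2 CPM. RT1-Ba was at 8.09 CPM in female normoxia medulla replicate 3, where the others had 99.5 to 135 CPM. That animal is among the 8 with low RT1-Ba in both regions described above. B2m was at 2863 CPM in male hypoxia cord replicate 2, above the 1391 to 1708 CPM of the others, and female hypoxia cord replicate 2 was likewise the highest of its group, at 5402 CPM.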

How the results depend on the processing

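Of 80 member tests 7 were called, and none of the 7 changed sign in any of the alternatives run. The comparisons that held these calls called 19.6% to 32.8% of all genes. All 7 use the female hypoxia cord libraries, and the part of their depth in these calls was not tested. Among 1550 member values under alternatives, 1469 kept direction and call, 57 changed sign, 16 lost and 8 gained a call. The cause was not tested. The number of members called changed as follows. For sex in the normoxia cord it was 0, and 1 with DESeq2 (RT1-Da), 1 with only the libraries compared (B2m), and 0 to 1 when single libraries were left out. For region with only the libraries compared it was 0 in place of 1 in female hypoxia and 3 in place of 0 in female normoxia, (RT1-Da, RT1-Db1 and B2m), where limma voom gave 1 (B2m). For the female region by exposure interaction it was 2 in place of 1 with the replicate block by animal. Of the relations without RT1-Ba, 1 in place of 3 held in the medulla without the 2 farthest animals, and 1 in place of 0 (RT1-Db1) held between regions without those or without female hypoxia animal 3. The replicate block changed 1 of 80 calls (RT1-Da above) and 4 signs, at -0.33 for RT1-Ba by sex in the hypoxia cord, -0.25 for RT1-Db1 by exposure in the male medulla, and -0.01 for RT1-Db1 and -0.25 for RT1-Ba by sex in the normoxia medulla. The replicate numbers are not stated to mark litters. For exposure and sex the block also joined hypoxia and normoxia libraries of a number, which are of different litters. No fit modelled the litters, so the alternatives do not cover them. With limma voom, signs of uncalled values changed for RT1-Ba in the cord, to -1.33 for the sex by exposure interaction and to -1.22 and 0.11 for sex after hypoxia and normoxia. For region RT1-Ba changed to -0.47, 0.16 and 0.44 in female hypoxia, female normoxia and male hypoxia, and to -0.63 for the female interaction. RT1-Db1 by exposure in the male medulla was -0.10, Cd74 in the medulla 0.01 for the sex by exposure interaction and 0.09 for sex after hypoxia, and B2m 0.11 for the male region by exposure interaction.

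Leaving out single libraries changed signs of uncalled values only. Exposure gave -0.04 to 0.54 for Cd74 and -1.12 to 0.07 for RT1-Db1 in the female cord, and in the male medulla -0.34 to 0.02 for RT1-Da, -0.35 to 0.30 for RT1-Db1 and -0.43 to 0.50 for RT1-Ba. Sex gave -0.43 to 0.76 for RT1-Db1 and -1.29 to 0.36 for RT1-Ba in the hypoxia cord, -0.90 to 0.11 for RT1-Ba in the normoxia cord, and -0.34 to 0.18 for Cd74 in the hypoxia medulla. The sex by exposure interaction gave -0.71 to 0.95 for RT1-Ba in the cord and -0.48 to 0.06 for Cd74 in the medulla. Region gave -1.09 to 0.26 for RT1-Db1 and -0.85 to 1.53 for RT1-Ba in female hypoxia, and -0.72 to 0.04 for RT1-Db1 and -0.08 to 1.15 for RT1-Ba in male normoxia. The region by exposure interaction gave -0.24 to 2.14 for RT1-Ba in females and -0.31 to 0.10 for B2m in males.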
